A study of Arabidopsis thaliana with 6 samples.

Results

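The 10 genes described here belong to the major latex protein-like (MLP-like) family of Arabidopsis thaliana and were followed in seedlings of the wild type and of the mutant pp7l-1. They were taken by locus code: MLP28 (AT1G70830), MLP31 (AT1G70840), MLP34 (AT1G70850), AT1G70880, MLP43 (AT1G70890), MLP165 (AT1G35260), MLP168 (AT1G35310), MLP328 (AT2G01520), MLP329 (AT2G01530) and MLP423 (AT1G24020). They are 10 of the 33341 genes counted, and were chosen with their difference between the genotypes known. That difference is therefore described here for these genes and not tested.

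Both groups were whole seedlings aged 4 days, grown in long days on agar with 1% sucrose, and each had 3 RNA sequencing libraries. One group was the wild type, named Col in the sample titles. The other was pp7l-1, a mutant of PROTEIN PHOSPHATASE 7-LIKE (PP7L), a gene studied in this series for its part in chloroplast development. Wild-type libraries held 14342054 to 16744328 counts, and those labelled pp7l-1 held 11269557 to 13724880. Plastid genes took 67.9% to 72.5% of wild-type counts and 55.1% to 63.2% of those labelled pp7l-1, and nuclear ribosomal RNA genes took 7.56% in pp7l-1 replicate 1 and at most 0.0151% elsewhere. PP7L itself had 24, 22 and 21 counts in the wild type against 280, 247 and 315 in those labelled pp7l-1. The gene named in the label was thus read more, not less, where it is mutated by label, and the labels do not say what the mutation does to the gene, so every direction below rests on the labels. The labels do not say that the libraries came from separate cultures, so errors and p-values measure only the spread between them.

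Major latex proteins were first described in the latex of opium poppy. They share with the birch pollen allergen Bet v 1 a fold built around a hydrophobic cavity that can hold small ligands, and the abscisic acid receptors of the PYR/PYL family have the same fold. In Arabidopsis, MLP43 has been described as a positive regulator of abscisic acid responses, and MLP328 as a cis-cinnamic acid-responsive gene that promotes vegetative growth and delays flowering. For most members no biochemical role is given here.

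A run of 5 of the 10 genes lies on the minus strand of chromosome 1. In the RefSeq annotation of TAIR10.1 (the submitters named the build TAIR10), these are MLP28 at chr1:26709889-26711587, MLP31 at chr1:26712982-26714069, MLP34 at chr1:26714866-26716901, AT1G70880 at chr1:26722846-26723978 and MLP43 at chr1:26725521-26726652. MLP28 and MLP31 are 1394 bases apart, and MLP31 and MLP34 are 796 bases apart. Between MLP34 and AT1G70880 lie 5944 bases, which hold the family genes AT1G70860 and AT1G70870. MLP328 (chr2:235925-237253) and MLP329 (chr2:239669-240687) are neighbours on the plus strand of chromosome 2, with 2415 bases between them. MLP165 (chr1:12936849-12937787) and MLP168 (chr1:12956119-12957090) are 18331 bases apart on the minus strand, and MLP423 (chr1:8500119-8502065, minus strand) stands alone. All 10 are annotated as protein-coding, and none shares exon bases with another gene.

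Protein lengths and identities are those of each gene's longest coding transcript, and MLP28 has 5 annotated transcripts and MLP34 has 3. The proteins of 8 members are 151 to 171 residues long, while those of MLP28 and MLP34 have 335 and 316 residues. In these long proteins the sequence is repeated. The first part of MLP28, cut at its middle, is 90.7% identical to the second over 162 aligned residues, and in MLP34 the same comparison gave 85.9% over 156. MLP28 and MLP34 are each other's closest member, with 88.8% identity over 322 residues. MLP328 and MLP329 are likewise closest to each other, with 88.1% over 151 residues. MLP165 and MLP168 are 72.4% identical, MLP43 is 78.5% identical to MLP28, and MLP423 is the most distant, with 36.1% to its closest member, MLP34.

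The longest stretches that the coding sequences of the closest pairs among the members have in common are shown because a short read inside them cannot tell the pair apart. Both are printed 5′ to 3′ on the coding strand, 72 bases for MLP28 with MLP34 (chromosome 1) and 38 bases for MLP328 with MLP329 (chromosome 2).
MLP28 and MLP34: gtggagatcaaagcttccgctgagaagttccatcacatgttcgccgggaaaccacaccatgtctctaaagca
MLP328 and MLP329: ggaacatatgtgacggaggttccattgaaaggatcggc
A read that lies inside such a stretch has no single origin. Windows of 50 bases found elsewhere in the genome made up 33 of 1375 windows (2.40%) of the exons of MLP28, 33 of 1222 (2.70%) of MLP34, 7 of 883 (0.793%) of AT1G70880, and 0 for the other members. These windows are exact matches, so reads aligned with mismatches are not covered. The sources used here do not say how the authors counted reads that match more than 1 place. The counts of MLP28 and MLP34 are uncertain at least to that extent.

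The 250 bases before the annotated starts of those pairs are shown because the members of one pair differed in direction and those of the other did not. They are printed 5′ to 3′ on the gene's strand, from RefSeq's TAIR10.1, with capitals for every match on either strand to ACGTG (the core of abscisic acid response elements), TTGAC (W-box core), GATAAG (I-box core) and TATAAA (core of the TATA box). CACGTG (G-box) and TGTCTC (auxin response element) were also searched and had no match in these 4 regions, which are MLP28 at chr1:26711588-26711837 (minus strand), MLP34 at chr1:26716902-26717151 (minus strand), MLP328 at chr2:235675-235924 (plus strand) and MLP329 at chr2:239419-239668 (plus strand).
MLP28: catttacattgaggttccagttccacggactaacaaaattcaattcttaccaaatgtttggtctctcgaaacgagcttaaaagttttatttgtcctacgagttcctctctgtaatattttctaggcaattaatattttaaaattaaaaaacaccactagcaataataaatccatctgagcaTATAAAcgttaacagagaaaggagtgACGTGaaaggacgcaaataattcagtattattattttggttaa
MLP34: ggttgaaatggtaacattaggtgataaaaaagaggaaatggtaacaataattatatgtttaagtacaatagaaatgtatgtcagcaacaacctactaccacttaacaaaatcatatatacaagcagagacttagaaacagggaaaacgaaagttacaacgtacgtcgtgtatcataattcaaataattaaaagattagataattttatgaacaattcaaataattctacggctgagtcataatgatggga
MLP328: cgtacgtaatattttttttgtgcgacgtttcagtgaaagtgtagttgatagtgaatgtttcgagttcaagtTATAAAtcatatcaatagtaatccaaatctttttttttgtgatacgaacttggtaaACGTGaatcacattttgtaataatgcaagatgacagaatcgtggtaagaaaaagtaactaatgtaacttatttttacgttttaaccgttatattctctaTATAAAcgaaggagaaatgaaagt
MLP329: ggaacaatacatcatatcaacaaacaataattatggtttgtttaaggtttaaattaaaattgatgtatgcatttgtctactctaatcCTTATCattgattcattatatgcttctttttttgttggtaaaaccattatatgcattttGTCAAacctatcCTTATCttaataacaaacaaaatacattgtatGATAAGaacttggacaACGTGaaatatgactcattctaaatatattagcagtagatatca
The region before MLP28 has ACGTG from 43 to 39 bases before the start, and that of MLP34 has no match to any of the 6 motifs. ACGTG lies from 123 to 119 bases before the start of MLP328 and from 44 to 40 bases before that of MLP329. MLP329 also has 3 matches to GATAAG and 1 to TTGAC. Over all 10 members ACGTG was found in 4 regions, TTGAC in 3, TGTCTC in 1, GATAAG in 2, TATAAA in 5 and CACGTG in 0. Among 27443 regions of the same length before genes, the shares with a match were 22.9% for ACGTG, 44.9% for TTGAC, 10.9% for TGTCTC, 12.3% for GATAAG, 47.3% for TATAAA and 6.49% for CACGTG, and every CACGTG also counts as ACGTG. These matches are letters in a window and were not tested against the expression values.

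Levels are given as CPM, counts per 1000000 of a library after scaling by edgeR's TMM method, and differences as log2 fold changes of the libraries labelled pp7l-1 against the wild type ± standard error from edgeR's quasi-likelihood fit over 18115 genes. The filter on low counts passed 8 members, all but MLP31 and MLP168. Of the 8, MLP28 and MLP423 were higher in every library labelled pp7l-1 than in any wild-type library, MLP34, MLP165, MLP328 and MLP329 were lower in every one, and MLP43 and AT1G70880 overlapped. The members were chosen on this contrast, so nothing is read from these counts and no call is given for them. The CPM of the groups did not overlap, with the libraries labelled pp7l-1 higher, in 18.7% of all genes tested and, with them lower, in 19.5%. MLP328 passed the filter through the wild type alone and so had to differ. Of all genes tested, 21.9% were past an adjusted p of 0.05 in edgeR's quasi-likelihood test, 10.6% higher and 11.3% lower. With library size alone as the scaling, 4493 genes were higher and 759 lower, in place of 1929 and 2043. In whole seedlings, fewer cells of a type and less RNA per cell cannot be told apart.

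**Figure D1:**
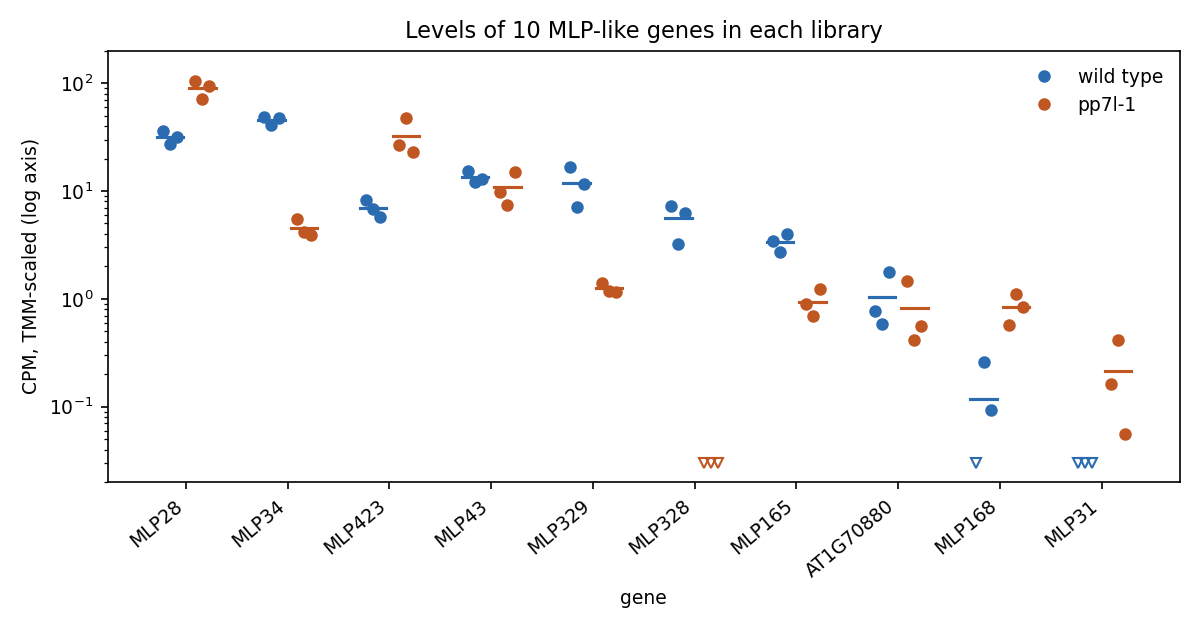
Levels of the 10 MLP-like genes in CPM (log axis) in each of 6 libraries, with a line at the mean of each group and open triangles for libraries at 0. MLP28 and MLP423 are higher in all 3 libraries labelled pp7l-1 than in any wild-type library, while MLP34, MLP329, MLP328 and MLP165 are lower in all 3.

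MLP28 had 508, 427 and 344 counts in the wild type against 1287, 1027 and 1692 in those labelled pp7l-1. Scaled, these are 35.9, 27.5 and 31.9 CPM against 105.4, 71.5 and 94.1 CPM. Every library labelled pp7l-1 was above every wild-type library, in counts and in CPM. Wild-type libraries averaged 31.8 ± 4.23 CPM (SD, n = 3), against 90.3 ± 17.3 CPM in those labelled pp7l-1, and the log2 fold change was 1.51 ± 0.21.

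MLP34, the closest relative of MLP28 and its neighbour but one, differed the other way. Its counts were 682, 642 and 518 in the wild type against 67, 60 and 71 in those labelled pp7l-1. The groups did not overlap, and the 3 libraries labelled pp7l-1 lay close together. It averaged 45.9 ± 3.95 CPM in the wild type (SD, n = 3) and 4.54 ± 0.831 CPM in those labelled pp7l-1, with a log2 fold change of -3.34 ± 0.21. The ratio of MLP28 to MLP34 counts does not depend on the scaling of the libraries. It was 0.745, 0.665 and 0.664 in the wild type against 19.2, 17.1 and 23.8 in those labelled pp7l-1, so the more abundant of the pair in counts was MLP34 in all wild-type libraries and MLP28 in the others.

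Between these genes lies MLP31, which was at the edge of detection. It had 0 counts in all wild-type libraries and 2, 6 and 1 in those labelled pp7l-1. Of these 9 counts 6 came from pp7l-1 replicate 2, and no fold is given. AT1G70880 had 11, 9 and 19 counts in the wild type against 18, 6 and 10 in those labelled pp7l-1. Its groups overlapped, at 1.04 ± 0.634 CPM and 0.816 ± 0.574 CPM (SD, n = 3), with a log2 fold change of -0.34 ± 0.52. That value was 0.09 with library size alone, 0.24 when wild-type replicate 3 was left out and -1.001 when pp7l-1 replicate 1 was, so no direction is given for this gene.

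MLP43, the member described in abscisic acid responses, ends the run. It had 216, 187 and 138 counts in the wild type against 120, 107 and 271 in those labelled pp7l-1. The highest library labelled pp7l-1, replicate 3 at 15.1 CPM, lay within the wild-type range, which reached 15.3 CPM, and the other two were below it. The means were 13.4 ± 1.70 CPM and 10.8 ± 3.90 CPM (SD, n = 3), a log2 fold change of -0.30 ± 0.23, which turned to 0.15 when libraries were scaled by their size alone. Of the 3 best counted genes of this run, MLP28 was thus higher and MLP34 lower with groups that did not overlap, and MLP43 overlapped.

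**Figure D2:**
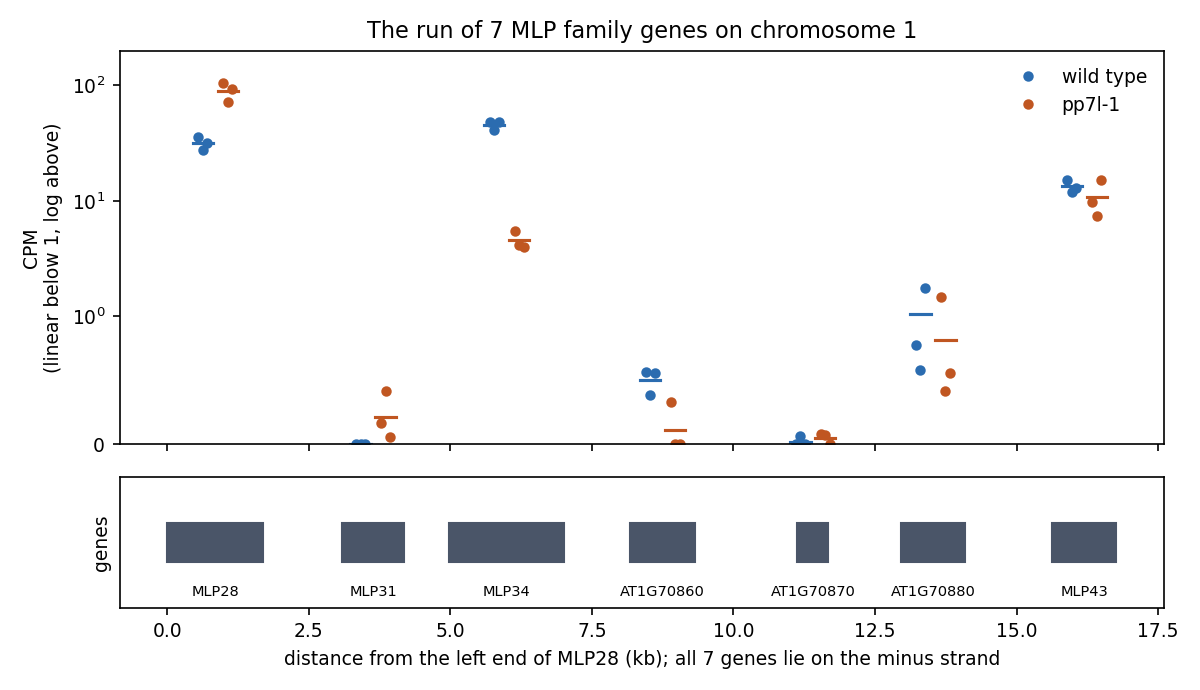
Levels in CPM (upper panel, linear below 1 and logarithmic above) of the 7 family genes of the run on chromosome 1, placed by distance in kb from the left end of MLP28, with each library as a point, a line at each group's mean, and the genes as boxes below. MLP28 and MLP34 differ in opposite directions, with MLP31 near 0 between them.

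On chromosome 2, both neighbours were lower in the libraries labelled pp7l-1. MLP328 had 103, 50 and 68 counts in the wild type and 0 in each library labelled pp7l-1. Wild-type libraries averaged 5.60 ± 2.12 CPM (SD, n = 3), and it was at least 81.1-fold lower in the libraries labelled pp7l-1, against a floor of 3 counts over that group (0.0673 CPM). MLP329 had 234, 110 and 126 counts in the wild type against 17, 17 and 21 in those labelled pp7l-1. Unlike MLP328, MLP329 was still counted in all 3 libraries labelled pp7l-1. It averaged 11.8 ± 4.74 CPM against 1.25 ± 0.126 CPM, with a log2 fold change of -3.24 ± 0.31. In both genes wild-type replicate 1 was the highest and replicate 2 the lowest of their group.

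MLP423, the most distant in sequence, had 116, 105 and 62 counts in the wild type against 329, 678 and 416 in those labelled pp7l-1. The groups did not overlap, and pp7l-1 replicate 2 stood highest, at 47.2 CPM against 26.95 and 23.1 CPM. The means were 6.90 ± 1.23 CPM and 32.4 ± 12.9 CPM (SD, n = 3), a log2 fold change of 2.22 ± 0.26. MLP165 had 49, 42 and 43 counts in the wild type against 11, 10 and 22 in those labelled pp7l-1. Again no library of one group reached the other, at 3.39 ± 0.647 CPM and 0.940 ± 0.266 CPM, a log2 fold change of -1.81 ± 0.31. Its closest relative MLP168 was rare, with 0, 4 and 1 counts in the wild type against 7, 16 and 15 in those labelled pp7l-1. Of its 5 wild-type counts 4 came from replicate 2, so no fold is given. Of the pairs closest in protein among the members, MLP328 and MLP329 therefore lay on the same side and MLP28 and MLP34 on opposite sides. MLP168 was too rare to set beside MLP165.

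Summed over the 10 genes, the libraries held 1919, 1576 and 1319 counts in the wild type against 1858, 1927 and 2519 in those labelled pp7l-1. This came to 119.8 ± 17.3 CPM and 142.1 ± 9.23 CPM (SD, n = 3), and the highest wild-type library, at 135.8 CPM, lay above the lowest library labelled pp7l-1, at 134.1 CPM. On this scaling the sum of the 10 genes thus overlapped between the groups. As a share of nuclear counts, ribosomal RNA genes included, it also overlapped, at 0.0299% to 0.0420% against 0.0374% to 0.0523%. The 0.0374% came from pp7l-1 replicate 1, where nuclear ribosomal RNA genes took 7.56% of all counts. With the other family genes added, the sum did not overlap on this scaling. It was 147.2 to 228.6 CPM in the wild type against 230.9 to 421.9 CPM in those labelled pp7l-1. As a share of nuclear counts that larger sum overlapped, with 3232 of 4574294 in wild-type replicate 1 and 3318 of 5068284 in pp7l-1 replicate 2. Of the shares in the sum of the 10 genes, those of MLP28, MLP34, MLP423, MLP165, MLP328 and MLP329 did not overlap. MLP31 and MLP168 had too few counts to set beside them. MLP28 made up 26.5%, 27.1% and 26.1% of these counts in the wild type against 69.3%, 53.3% and 67.2% in those labelled pp7l-1. Their 95% Wilson intervals ran from 23.8% to 29.3% and from 51.1% to 71.3% over the libraries of each group. MLP34 went from 35.5%, 40.7% and 39.3% to 3.61%, 3.11% and 2.82%, with intervals from 33.4% to 43.2% and from 2.24% to 4.55%. MLP423 made up 6.04%, 6.66% and 4.70% in the wild type against 17.7%, 35.2% and 16.5% in those labelled pp7l-1. The shares sum to the same total, so a smaller share of one member raises the others.

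**Figure D3:**
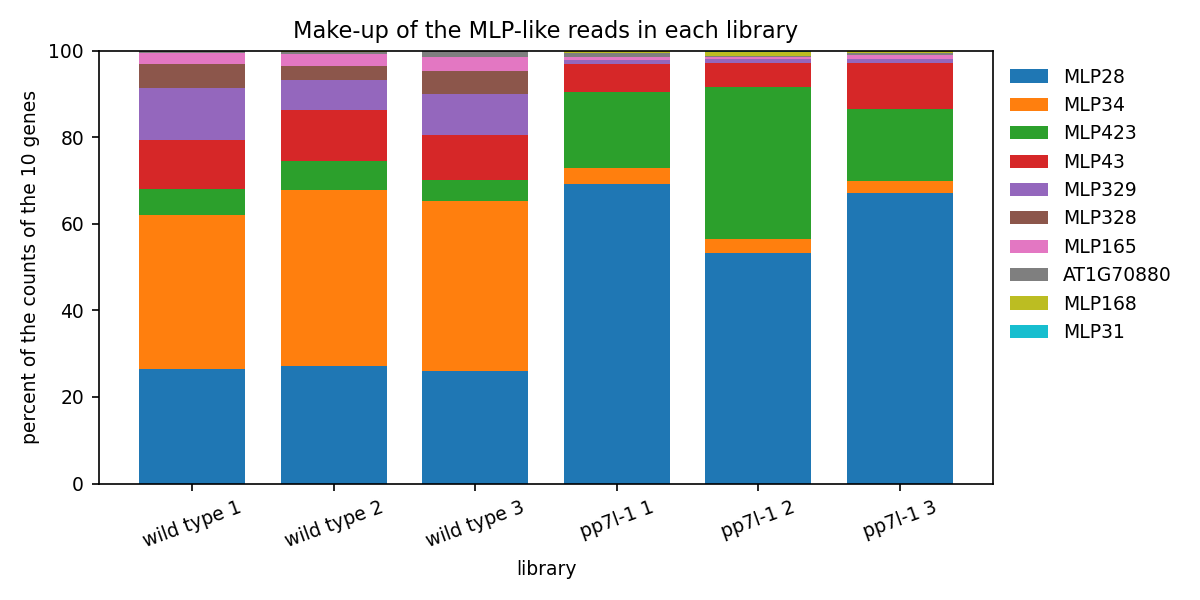
Percent of the counts of the 10 MLP-like genes that each gene takes in each library, as stacked bars from 0 to 100. MLP34 is the largest share in every wild-type library, and MLP28 in every library labelled pp7l-1.

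Compared per kilobase of exon, MLP34 was the most abundant member in the wild type, at 33.3 ± 2.87 CPM per kb (SD, n = 3). MLP28 followed at 20.9 ± 2.78, MLP43 at 12.97 ± 1.65 and MLP329 at 12.5 ± 5.04 CPM per kb, of which the last pair did not differ beyond their spread. MLP328 at 6.26 ± 2.37, MLP423 at 5.51 ± 0.984 and MLP165 at 4.41 ± 0.844 CPM per kb also overlapped one another within their spread. AT1G70880 stood at 1.06 ± 0.646 and MLP168 at 0.140 ± 0.157 CPM per kb, and MLP31 was at 0. In this order MLP34 lay above 95.8% of the 17952 tested genes with an exon length, MLP165 above 69.2% and AT1G70880 above 23.9%.

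In the libraries labelled pp7l-1 the order began with MLP28, at 59.4 ± 11.4 CPM per kb (SD, n = 3) and above 98.0% of those genes. MLP423 came next at 25.9 ± 10.3, then MLP43 at 10.5 ± 3.79 and MLP34 at 3.30 ± 0.604 CPM per kb. MLP329 at 1.33 ± 0.134, MLP165 at 1.23 ± 0.347, MLP168 at 1.01 ± 0.325 and AT1G70880 at 0.832 ± 0.586 CPM per kb followed. Among these, neighbours in the order did not differ beyond their spread. MLP31 was at 0.280 ± 0.245 CPM per kb, and MLP328 was last at 0.

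Profiles over the 6 libraries were compared among 1247 genes with a symbol and at least 20 CPM in the wild type. Nearest to MLP28 were GUN5, the H subunit of magnesium chelatase in chlorophyll synthesis, and RPL9 (AT3G44890), a plastid ribosomal protein. Likeness was the root mean square difference of centred log2 CPM, 0.202 for GUN5 and 0.203 for RPL9. The centring was over both groups, so genes with a like difference between the genotypes come out near. The members were chosen on that difference, and shared regulation was not tested. GUN5 went from 197.6 ± 9.97 to 482.5 ± 94.2 CPM and RPL9 from 20.4 ± 1.26 to 50.3 ± 10.8 CPM (SD, n = 3). Nearest to MLP34 were DR4 (AT1G73330), named for its repression by drought, at 0.387 and the aquaporin gene PIP2;4 at 0.438. DR4 went from 29.6 ± 4.21 to 4.13 ± 1.28 CPM, and PIP2;4 from 26.7 ± 6.25 to 1.89 ± 0.777 CPM.

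Of the other 16 family genes 5 could be tested, and 2 of these rose and 1 fell in edgeR's quasi-likelihood test, beside 21.9% of all genes. AT4G23670 rose from 42.9 ± 15.9 to 130.8 ± 70.6 CPM (SD, n = 3), a log2 fold change of 1.61 ± 0.36 (adjusted p = 0.00492). Its close relative AT4G23680, 79.5% identical in protein, rose from 9.76 ± 3.53 to 40.1 ± 16.9 CPM, a log2 fold change of 2.04 ± 0.31 (adjusted p = 0.000273). AT1G14960 fell from 2.57 ± 0.104 to 0.470 ± 0.237 CPM, a log2 fold change of -2.48 ± 0.39 (adjusted p = 0.000404). AT3G26450, with a log2 fold change of 0.62 ± 0.30 (adjusted p = 0.151), shares 99.3% of its exon bases with another gene, so its counts are uncertain. AT1G23130 had a log2 fold change of -0.33 ± 0.29 (adjusted p = 0.444). Among the untested, chosen here after their values were seen, AT1G14950 had 1, 0 and 0 counts in the wild type against 9, 9 and 8 in those labelled pp7l-1, so that beside AT1G14960, which fell, lay a gene with more counts in every library labelled pp7l-1. Per kilobase, AT4G23670 was at 38.2 ± 14.2 CPM per kb in the wild type, a level that MLP34 did not differ from beyond its spread.

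**Figure D4:**
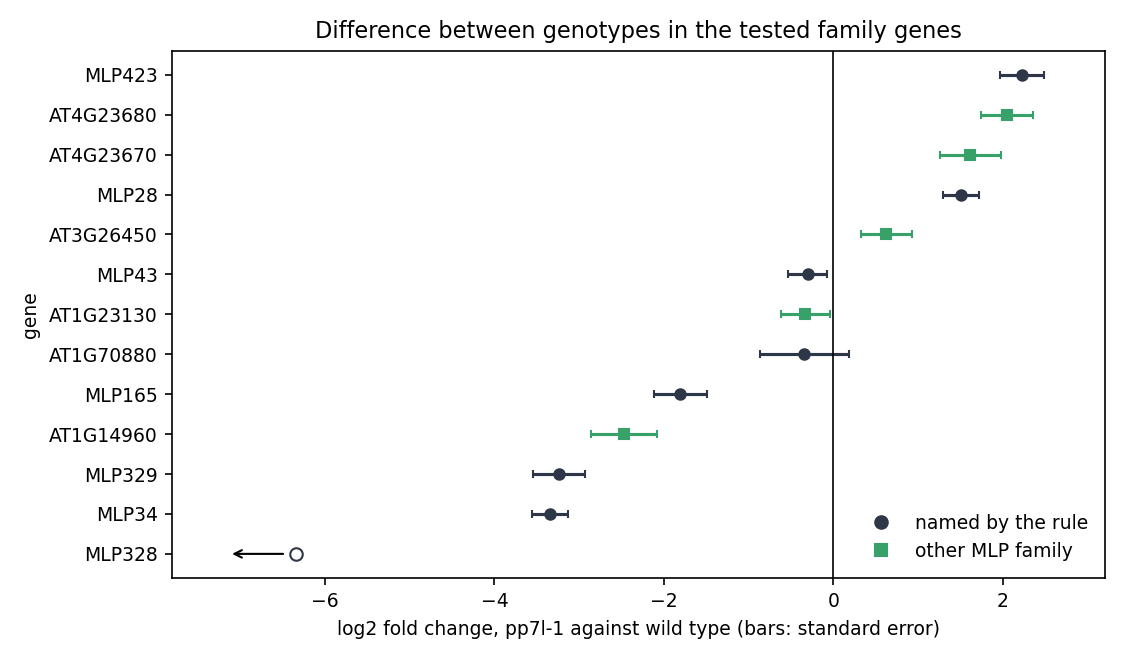
Log2 fold change of the libraries labelled pp7l-1 against the wild type with standard error bars for the 13 tested family genes, where circles are the members and squares other family genes. The open circle with an arrow marks the bound for MLP328, at -6.34, and the genes spread from there to 2.22 for MLP423.

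The abscisic acid receptors, which have the same fold, were taken as the next comparison. Of 14 receptor genes 8 could be tested, and 2 fell and 0 rose (25.0%, beside 21.9% of all genes), with a median log2 fold change of -0.27 beside -0.01 over all genes. With library size alone 2 were higher and 1 lower. PYL7 was higher and past the threshold in 7 of the 14 alternatives. PYL5 fell from 70.4 ± 22.0 to 25.5 ± 6.34 CPM (SD, n = 3), a log2 fold change of -1.46 ± 0.25 (adjusted p = 0.000760). PYL4 fell from 54.0 ± 4.70 to 33.5 ± 1.37 CPM, a log2 fold change of -0.69 ± 0.18 (adjusted p = 0.0131). The count of receptors past the threshold was 1 when pp7l-1 replicate 1 or wild-type replicate 2 was left out, and 4 when pp7l-1 replicate 2 was. Of 14 genes of the signalling core 12 could be tested, and 2 fell, the phosphatase PP2CA with -0.91 ± 0.22 (adjusted p = 0.00888) and the kinase SNRK2.3 with -0.67 ± 0.19 (adjusted p = 0.0229). This was 16.7% of the list, beside 21.9% of all genes, and with library size alone 2 other genes of the core were higher and 0 lower. Over the 14 alternatives PP2CA and SNRK2.3 stayed below 0, reaching -0.46 and -0.27 at the nearest. Without pp7l-1 replicate 1 the count was 0. It was 1 when pp7l-1 replicate 3 was left out, or replicate 1 or 3 of the wild type.

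Genes next to the members on the chromosomes were compared for position. Of 41 neighbours, up to 5 on each side, 21 could be tested, and 1 rose and 3 fell (19.0%, beside 21.9% of all genes), with a median log2 fold change of -0.11. AT1G35290, near MLP168, had a log2 fold change of 1.52 ± 0.47, and AT1G35250, near MLP165, of -2.20 ± 0.46. AT2G01540, near MLP329, had -0.98 ± 0.24. AT1G70780, near MLP28, ranged from -0.81 to -0.29 over the 14 alternatives and was past the threshold in 9 of them. AT1G35290 was past it in 10. With wild-type replicate 2 or 3, or pp7l-1 replicate 1 or 3, left out, 0 neighbours rose. Without pp7l-1 replicate 1, or without replicate 3, the count past the threshold was 2.

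Because whole seedlings were used, markers of root and shoot were read beside the members. Of 24 root marker genes 15 could be tested, and 12 fell and 0 rose (beside 11.3% lower among all genes), with a median log2 fold change of -1.09. With library size alone 8 fell, at a median of -0.68. PRP1, a gene for a proline-rich protein, had -2.69 ± 0.37, and CASP2, of the Casparian strip of the endodermis, had -2.06 ± 0.29. Summed, the root markers were at 101.7, 104.8 and 109.3 CPM in the wild type and at 55.0, 58.8 and 34.7 CPM in those labelled pp7l-1, and 0 of the 24 were at 0 throughout. Of the tested root markers 14 had a log2 fold change below 0 and 1 above it. ESB1 ranged from -0.07 to 0.67 over the 14 alternatives and was above 0 in 13 of them. Most tested root markers, but not all, thus lay on the same side as MLP34, MLP165, MLP328 and MLP329. Their part in the result was not tested. Of 13 shoot marker genes 12 could be tested and 1 rose (8.33%, beside 10.6% higher among all genes), at a median of 0.39. The gene that rose was AS1, a leaf development regulator, with 1.22 ± 0.28 (adjusted p = 0.00572). Their sum overlapped between the groups, at 4184 to 5840 CPM in the wild type and 5204 to 6758 CPM in those labelled pp7l-1.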

How the data were processed

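RNA was sequenced from whole seedlings of both genotypes, with 3 libraries each. The authors deposited 1 table of counts of reads per gene for each library, not normalised. Per the submitters' processing notes, Trimmomatic, FastQC, TopHat2 2.1.1 and featureCounts were used on the build TAIR10. The annotation counted, the strand setting and the treatment of reads with several matches are not given in the sources used here. Gene models and sequences came from RefSeq's TAIR10.1.

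From the deposited counts, filterByExpr (minimum count 10) kept 18115 of 33341 genes. Scaling was by TMM, the trimmed mean of M values. Genotype was the single term of the fit with edgeR 4.0.16 (quasi-likelihood, R 4.3.3), and Benjamini-Hochberg adjustment ran over all genes tested, with a threshold of 0.05. CPM are counts per 1000000 of the scaled library, and levels are also given per kilobase of exon. Intervals and the floor (3 counts over a group) cover counting error only. Alternatives were DESeq2 1.42.0, other scalings and count filters, leaving out organelle and ribosomal RNA genes, each library in turn, and a replicate block.

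The members and the gene lists were chosen with earlier results of these data known. The named genes are all 10 members, tested family genes, genes past the threshold in each list (at most 4 by size of change) and, for members at 20 CPM or more in the wild type, the 2 genes nearest in profile. Other genes named were chosen after their values were seen.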

Additional observations from a re-analysis of the deposited data

How the results depend on the processing

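Over the 14 alternatives, which refit the libraries on which the members were chosen and so support nothing about them, the log2 fold change ranged from 1.39 to 1.93 for MLP28, -3.49 to -2.93 for MLP34, 1.88 to 2.59 for MLP423, -3.51 to -2.82 for MLP329 and -2.05 to -1.37 for MLP165. MLP43 ranged from -0.61 to 0.15 and AT1G70880 from -1.001 to 0.24 over the 13 in which it was tested. Over all genes, 3972 passed, 3318 with DESeq2 and 5252 with library size alone, which moved the median over all of them to a log2 fold change of 0.41. Library size alone gave 5 shoot markers (all higher), 2 neighbours (1 higher, 1 lower) and 8 root markers, and turned the split of the receptors to 2 higher and 1 lower and that of the signalling core to 2 higher and 0 lower. No count filter gave 2 shoot markers, 8 other family genes and 4 abscisic acid receptors. Leaving out each library in turn gave 3 to 4 other family genes, 1 to 4 receptors, 0 to 2 genes of the signalling core, 10 to 12 root markers, 1 to 2 shoot markers, 2 to 4 neighbours and 2671 to 4365 genes in all. Same-numbered libraries correlated at 0.1004, -0.0280 and 0.0536 in their deviations from the group means, so the numbers were not taken to pair them, and not every library correlated best with its own number. With a replicate block 4153 genes and 4 receptors passed. MLP31 and MLP168 had too few counts for a fold.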
